A study of Mus musculus with 24 samples.

Results

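Txnip and Gm15441 are 2 of the 24421 gene entries in a table of liver RNA counts, and they lie on opposite strands of the same stretch of mouse chromosome 3. The pair was chosen by name, with these counts already known, for the high count under Gm15441 beside the low count under Txnip. Levels and ratios are therefore given as a description, and the tests below were not independent of that choice. Both entries passed the filter on low counts that left 4198 entries for testing. Livers came from male C57Bl/6J mice on a control diet (CD, 13% fat) or a Western diet (WD, 42% fat), exposed in chambers to clean air or to vinyl chloride (VC), an industrial monomer that the liver oxidises. VC was given at about 0.85 ± 0.1 ppm for 6 hours a day, 5 days a week, over 12 weeks. The w12 groups were taken after those 12 weeks, and the m12 groups at 12 months, after 9 further months of housing, and all mice were fasted for 4 hours. The 8 groups were w12_CD, w12_CD+VC, w12_WD, w12_WD+VC, m12_CD, m12_CD+VC, m12_WD and m12_WD+VC, each with 3 libraries that are numbered as the labels number them. Whether the libraries of a group stand for separate animals is not in the labels, so each p-value speaks only of the spread between libraries.

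Txnip encodes thioredoxin-interacting protein, an alpha-arrestin that binds thioredoxin, restrains its reducing activity and limits glucose uptake. In liver its transcription follows sugar supply through the glucose-sensing factor ChREBP, the product of Mlxipl, and the protein has been linked to the NLRP3 inflammasome. Gm15441 is a long non-coding RNA read from the other strand, known in mouse liver as a target of the fasting-responsive receptor PPAR-alpha that lowers Txnip.

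In the GENCODE M21 annotation of GRCm38, Txnip (ENSMUSG00000038393.14) is a protein-coding gene on the plus strand at chr3:96557957-96561883. Gm15441 (ENSMUSG00000074398.5) is annotated as antisense on the minus strand at chr3:96555765-96566801, so that its span holds the whole of Txnip. Txnip has 3123 exon bases and Gm15441 has 1676, of which 606 are exon on both strands. The shared bases fall in 2 segments, 1 of 441 bases at chr3:96557957-96558397 in the first Txnip exon and 1 of 165 bases at chr3:96559678-96559842 in a later, coding exon. The first segment holds 162 coding and 279 non-coding bases of Txnip, and the other is coding throughout. Gm15441 has 2 annotated transcripts. The longer begins 4918 bases beyond the Txnip end and crosses the gene, whereas the shorter begins 142 bases before the Txnip start and shares no base with Txnip.

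**Figure D1:**
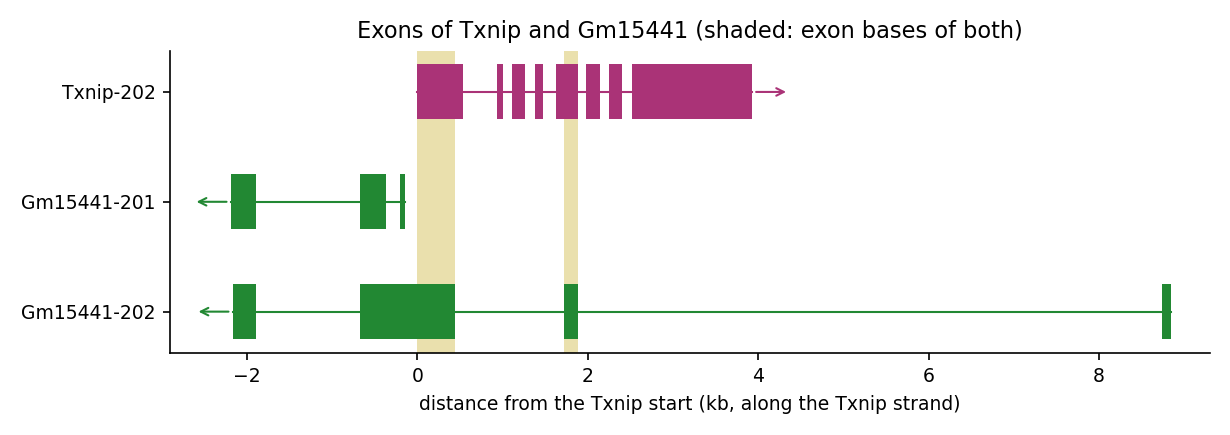
Exons (boxes) of 1 Txnip transcript and both Gm15441 transcripts, with distance from the Txnip start in kb on the x axis and arrows giving the direction of reading. The shaded bands are the 2 segments, 441 and 165 bases long, that are exon on both strands, and only the longer Gm15441 transcript reaches them.

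The 250 bases before the Txnip start, chr3:96557707-96557956 on the plus strand (RefSeq promoter table, GRCm38.p6), are shown because the first exon of the shorter Gm15441 transcript, chr3:96557756-96557815 on the minus strand (GENCODE M21), lies inside them. Each is printed 5′ to 3′ on its own strand, and capitals in the first mark a pair of E-box-like hexamers of the kind to which ChREBP binds.
Txnip upstream: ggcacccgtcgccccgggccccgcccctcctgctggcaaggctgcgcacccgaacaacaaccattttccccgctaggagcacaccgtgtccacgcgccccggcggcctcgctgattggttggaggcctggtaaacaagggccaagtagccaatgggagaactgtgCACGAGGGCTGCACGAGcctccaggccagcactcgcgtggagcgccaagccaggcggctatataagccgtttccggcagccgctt
Gm15441 exon 1: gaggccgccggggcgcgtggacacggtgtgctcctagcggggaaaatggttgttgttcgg
The capitals span chr3:96557872-96557888. This spelling, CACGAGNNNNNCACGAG, was chosen after the window had been read, so its presence there is given by the choice. Of 32851 promoter windows in the table, which run from 250 bases before to 50 after a start, 1 (0.00304%) held it on either strand, and that 1 was the Txnip window. The perfect form CACGTGNNNNNCACGTG was in 0 windows, and CCAAT was in 37.4% of windows, with 2 matches before Txnip. None of these matches is a measurement of binding.

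Depth was low. The third w12_WD library (w12_WD 3) held 607 counts, 1 of them of Txnip and 2 of Gm15441, and the other 23 held 126160 to 962493. The smallest library enters the fits but not the levels, so w12_WD has n = 2 in every level. Levels are CPM, that is counts scaled to a common library size after TMM normalisation. Alb and the other 8 hepatocyte markers in the table summed to 5343 CPM or more in each of the 23 libraries. Group means of that sum ran from 8413 CPM in w12_WD to 26755 CPM in m12_CD+VC. The haemoglobin entries Hba-a1, Hba-a2, Hbb-bs and Hbb-bt had no counts in any of the 23 libraries. Why was not tested, and these values are not a test of tissue identity.

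The kit named in the labels does not mark strand, but whether these libraries do, and how the counting treated strand, is unknown here. If they do not, reads of the pair cannot be told apart in the shared exons. Which strand the reads under either name came from was not tested. Every level, fold change and test below is that of the table entry with the name Txnip or Gm15441, and not a measured level of one strand. Had libraries that do mark strand been counted with the opposite setting, most counts under each name would belong to the other gene, and this was not tested. Opposite-strand pairs in general leaned toward the non-coding entry. Among 346 pairs of a coding and a non-coding entry with shared exon bases and at least 100 counts, the non-coding entry held over 50% of the counts in 247 pairs (71.4%). The median share was 89.7%, and the share of Gm15441 in its pair was 96.3%, with 107 pairs higher. Ahsg, which encodes a secreted liver glycoprotein, had 9491 counts against 811048 under its antisense entry Gm30505, with which it shares 62 exon bases. For this reason the sum of both entries is given beside each of them. Values of every other gene and cell type marker named in this report are likewise those of table entries. Which strand their reads came from was not tested either.

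More counts stood under the name Gm15441 than under Txnip. The 51016 counts of Gm15441 over all libraries ranked it 12th of 24421 entries, and the 1937 counts of Txnip ranked it 592nd, and Gm15441 exceeded Txnip in 24 of 24 libraries. Over the 23 libraries Gm15441 ran from 2231 to 12068 CPM with a median of 5420, a 5.41-fold range. Txnip ran from 15.8 to 1951 CPM with a median of 73.2, a 124-fold range. Per kb of exon, the count of Gm15441 was 8.28 to 766 times that of Txnip, with a median of 129. The biological coefficient of variation fitted by edgeR was 0.581 for Txnip, above 96.7% of tested genes, and 0.323 for Gm15441, against a common value of 0.317.

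At 12 weeks, Txnip was highest in mice that had both the Western diet and VC. The w12_WD+VC libraries had 1951, 730 and 341 CPM, from 875, 174 and 50 counts. The w12_CD libraries had 15.8, 415 and 185 CPM, the w12_CD+VC libraries 20.6, 15.8 and 73.2 CPM, and the w12_WD libraries 54.4 and 59.5 CPM. The range of w12_WD+VC lay above both w12_CD+VC and w12_WD but overlapped that of w12_CD through the second w12_CD library. Means were 1007 ± 840 (SD, n = 3) in w12_WD+VC, 205 ± 200 (SD, n = 3) in w12_CD, 36.5 ± 31.9 (SD, n = 3) in w12_CD+VC and 56.9 ± 3.60 (SD, n = 2) in w12_WD. In this bulk tissue, a change in the number of cells that carry an RNA and a change in RNA per cell cannot be told apart.

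At 12 months, Txnip spanned a narrower range. The m12_CD libraries had 52.6, 34.1 and 16.0 CPM, and the m12_WD libraries 155, 64.2 and 191 CPM. With earlier VC, the m12_CD+VC libraries had 33.2, 73.8 and 228 CPM, and the m12_WD+VC libraries 342, 160 and 57.4 CPM. Every m12_WD and every m12_WD+VC library was above every m12_CD library, and all other pairs of groups at this time overlapped. Without VC the means were 34.2 ± 18.3 on control diet and 137 ± 65.2 on Western diet, and with VC 112 ± 103 and 186 ± 144 (SD, n = 3 each). Ordered by mean over both times, from m12_CD at the bottom through w12_CD+VC, w12_WD, m12_CD+VC, m12_WD, m12_WD+VC and w12_CD to w12_WD+VC at the top, each group overlapped the next.

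**Figure D2:**
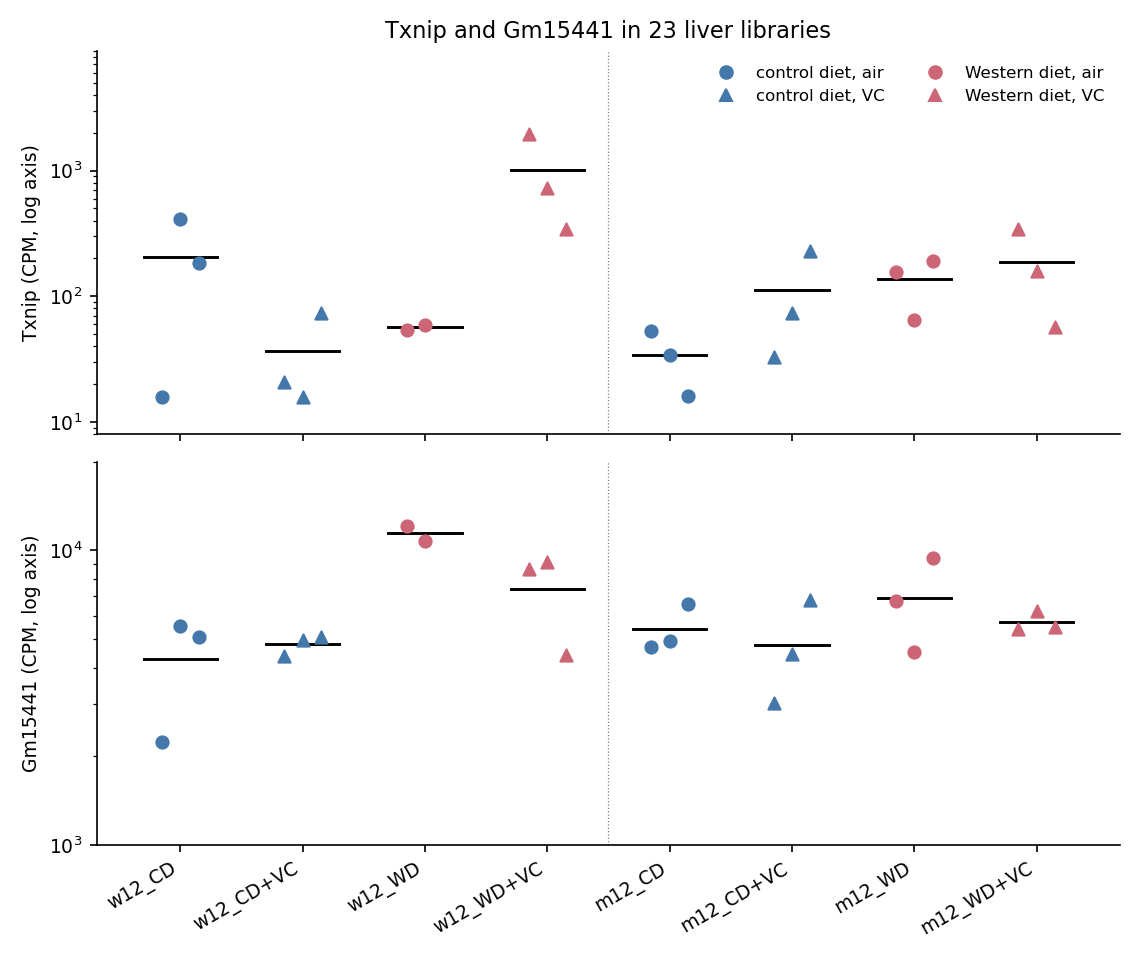
Txnip (top) and Gm15441 (bottom) in CPM on log axes for each of 23 libraries, by group, with a line at the group mean. Txnip reached 341 to 1951 CPM in w12_WD+VC, and Gm15441 was highest in w12_WD, at 10792 and 12068 CPM.

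Gm15441 followed another order. Its w12_WD libraries had 12068 and 10792 CPM, above all other libraries. The w12_CD libraries had 2231, 5552 and 5084 CPM, the w12_CD+VC libraries 4382, 4977 and 5066 CPM, and the w12_WD+VC libraries 8673, 9109 and 4430 CPM. At 12 months the lowest and highest libraries were 4695 and 6563 CPM in m12_CD, 3033 and 6799 in m12_CD+VC, 4532 and 9435 in m12_WD, and 5420 and 6235 in m12_WD+VC. All groups at 12 months overlapped each other. Group means ran from 4289 ± 1798 CPM (SD, n = 3) in w12_CD to 7404 ± 2585 (SD, n = 3) in w12_WD+VC and 11430 ± 902 (SD, n = 2) in w12_WD, and the step between these last 2 groups was the only one between neighbours without overlap.

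The balance of the pair was shifted toward Txnip in w12_WD+VC. Txnip held 18.4% (exact 95% binomial interval 17.3% to 19.5%), 7.42% (6.39% to 8.55%) and 7.14% (5.35% to 9.31%) of the pair's counts there, so that 4.44, 12.5 and 13.0 counts of Gm15441 stood against 1 of Txnip. These were the highest shares of the 23 libraries. The next was 6.95% (5.76% to 8.30%) in the second w12_CD library, whose interval overlaps those of the lower 2. The lowest was 0.243% (0.0789% to 0.566%) in the third m12_CD library, with 411 counts of Gm15441 for each of Txnip. The median over libraries was 69.2 counts of Gm15441 for each of Txnip. These intervals cover counting error only.

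**Figure D3:**
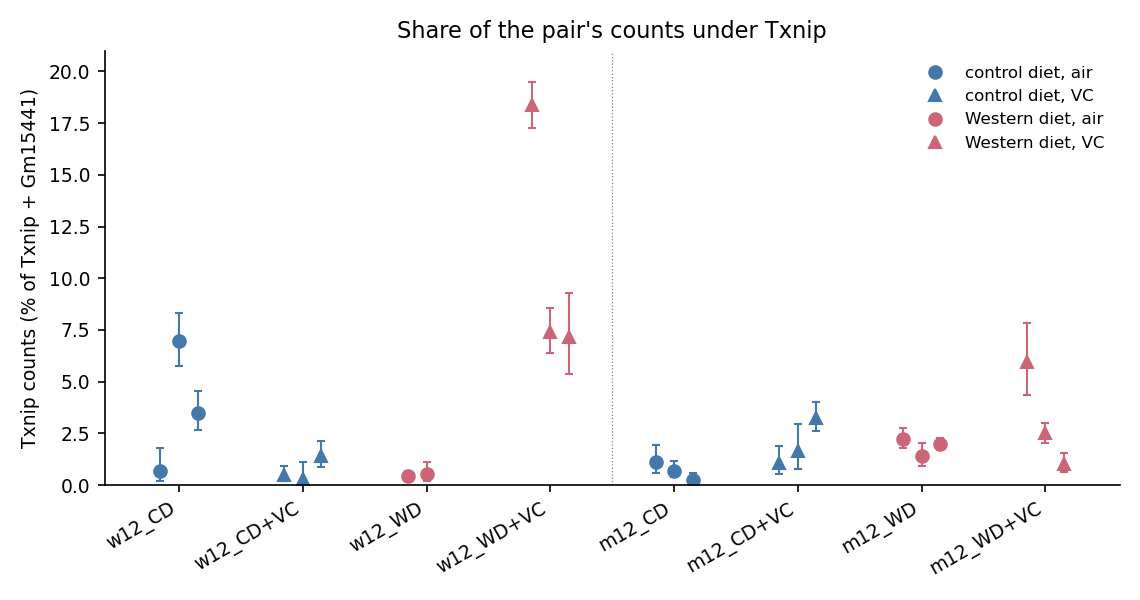
Txnip counts as a percentage of Txnip plus Gm15441 counts in each of 23 libraries, by group, with exact 95% binomial intervals. The w12_WD+VC libraries sit at 7.14% to 18.4%, and all others at 6.95% or less.

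Each entry was compared in 14 ways, with fits across all tested genes: diet, VC and time in each of the other conditions, and, separately for both times, whether diet and VC interacted. They share groups, so their results are not independent of each other. Txnip passed the threshold in 3 of them, and Gm15441 and the sum of the pair in none by edgeR or DESeq2, each with an unadjusted edgeR p under 0.05 in 1 comparison.

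On the effect of diet at 12 weeks, Txnip was higher on Western diet among VC-exposed mice, with 1951, 730 and 341 CPM against 20.6, 15.8 and 73.2. The log2 fold change was 4.70 (SE 0.787), a 26.0-fold difference, with an adjusted p of 0.00385, the smallest p of 4198 genes, in a comparison where 0.524% were called. The call was lost without w12_WD+VC 1, the library with 1951 CPM, at a log2 fold change of 3.78 and an adjusted p of 0.0996. Cyp4a14, a fatty acid hydroxylase and PPAR-alpha target, also rose there, by 4.86 on the log2 scale (SE 1.09, adjusted p = 0.0287). In w12_WD+VC its counts of 52, 13 and 11 equalled those of its paralog Cyp4a10 in each library, and how that came about was not tested. In every other group the summed counts differed, as in w12_CD+VC with 2 of Cyp4a14 and 19 of Cyp4a10. Among mice without VC, Txnip had a log2 fold change of -1.77 (SE 0.883, adjusted p = 0.882), where 0.0238% of genes were called, and it ran from -2.31 to -0.78, the latter without w12_CD 2, when each library was left out.

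Gm15441 had a log2 fold change of 1.08 (SE 0.405) for diet without VC at 12 weeks, its lowest unadjusted p of the 14 at 0.0114 by edgeR's quasi-likelihood test (adjusted p = 0.755). That is a 2.12-fold difference in a fit that includes w12_WD 3, whereas the ratio of mean CPM without it was 2.66. When each library was left out, the log2 fold change ran from 0.76 to 1.44, with edgeR adjusted p from 0.144 to 0.9997. With VC the log2 fold change was 0.62 (SE 0.396, adjusted p = 0.618). The sum of the pair gave 1.04 (adjusted p = 0.775) and 0.80 (adjusted p = 0.466).

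On whether VC and diet act together, the diet by VC interaction at 12 weeks was the only call among all genes (0.0238%), and the gene was Txnip, with a log2 interaction of 6.47 (SE 1.19, adjusted p = 0.0194). The fitted diet difference was 4.70 under VC and -1.77 under air, and the latter alone did not pass the threshold. The interaction of Gm15441 was -0.46 (SE 0.563, adjusted p = 0.9998), and that of the sum was -0.24 (SE 0.557, adjusted p = 0.9998). The Txnip interaction was lost with RLE scaling (adjusted p = 0.0570), with DESeq2 (adjusted p = 0.391) and without any 1 of 6 libraries. Those were w12_CD 2 (adjusted p = 0.141), w12_CD+VC 1 (0.0872), w12_CD+VC 2 (0.0638), w12_WD 1 (0.369), w12_WD 2 (0.299) and w12_WD+VC 1 (0.113).

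For VC itself at 12 weeks, no gene was called on either diet (0% of 4198 in both). On control diet 170 genes, and on Western diet 235, had an unadjusted p under 0.05 in edgeR, and DESeq2 also called 0 on each. Txnip was second by p on Western diet, with a log2 fold change of 4.08 (SE 0.904, adjusted p = 0.116), and its 3 exposed libraries lay above both unexposed ones. With these groups fitted alone it passed, at an adjusted p of 2.16e-08, and in the fit of all groups it passed without w12_CD 1, w12_CD 2, w12_WD+VC 3 or m12_CD+VC 3, where adjusted p ran from 0.0204 to 0.0480. On control diet the value was -2.39 (SE 0.781, adjusted p = 1), with overlapping groups. It was -1.43 without w12_CD 2 and -3.41 without w12_CD+VC 3. Gm15441 gave -0.29 (SE 0.401) on Western diet, where its exposed libraries lay below both unexposed ones, and 0.16 (SE 0.395) on control diet.

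At 12 months, Txnip was higher on Western diet among mice without VC, with 155, 64.2 and 191 CPM against 52.6, 34.1 and 16.0. The log2 fold change was 2.05 (SE 0.767), a 4.14-fold difference, with an adjusted p of 0.0475, in a comparison where 24.5% of all genes were called. The call lay near the threshold: it held in 11 of 24 fits that each left out 1 library, with adjusted p from 0.0232 to 0.171, and was lost with DESeq2 (adjusted p = 0.116). The libraries whose loss ended it were w12_CD 3, w12_CD+VC 1 and 2, each of w12_WD and m12_CD, m12_CD+VC 2, m12_WD 1 and 3, and m12_WD+VC 2. Markers of other cell types were also higher in m12_WD: 10 macrophage and Kupffer cell markers summed to 520 to 711 CPM there and 83.2 to 153 CPM in m12_CD, and 8 stellate and fibroblast markers to 166 to 192 and 8.76 to 29.3 CPM. The 6 cholangiocyte markers summed to 83.2 to 206 and 0 to 12.8 CPM, and the 9 hepatocyte markers to 13524 to 26070 and 5343 to 12769 CPM. Their part in the Txnip difference was not tested. The value for Gm15441 was 0.35 (SE 0.394, adjusted p = 0.544). It was 0.73 both with RLE scaling (unadjusted p = 0.0491, adjusted p = 0.123) and with DESeq2 (unadjusted p = 0.0483, adjusted p = 0.205).

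No other Txnip comparison within 12 months passed the threshold. Diet with earlier VC gave 0.58 (SE 0.701) for Txnip, where 1.81% of genes were called. Earlier VC gave 1.79 (SE 0.799, adjusted p = 0.143) on control diet, where 5.22% were called, and 0.32 (SE 0.666) on Western diet, where 0.572% were. The control-diet value was 0.47 without m12_CD+VC 3, the library with 228 CPM. The interaction was -1.47 (SE 1.04, adjusted p = 0.352), in a comparison with 9.81% called. Gm15441 lay between -0.27 and 0.35 on the log2 scale in these and in the diet comparison without VC. With RLE scaling its interaction was -0.59 in place of -0.0900, and with DESeq2 also -0.59.

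Between the times, Txnip had a log2 fold change of -2.55 (SE 0.676, adjusted p = 0.0665) in mice with Western diet and VC, where 0.786% of genes were called, and -2.62 (SE 0.778, adjusted p = 0.0810) in mice with control diet and air, where 1.62% were. Neither passed the threshold in the fit of all groups. The first passed with the compared groups alone (adjusted p = 0.00954) and in 12 of 24 fits without 1 library, and the second without w12_CD 1 (adjusted p = 0.0146). Those 12 fits lacked w12_CD 1 or 2, w12_CD+VC 1 or 3, w12_WD+VC 3, m12_CD 1 or 3, any of m12_CD+VC, m12_WD 3 or m12_WD+VC 1. The remaining 2 time comparisons gave 1.56 (SE 0.802) on control diet with VC, where 6.38% were called, and 1.20 (SE 0.870) on Western diet without VC, where 14.6% were. Gm15441 ran from -0.40 to 0.33 over the 4 time comparisons.

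**Figure D4:**
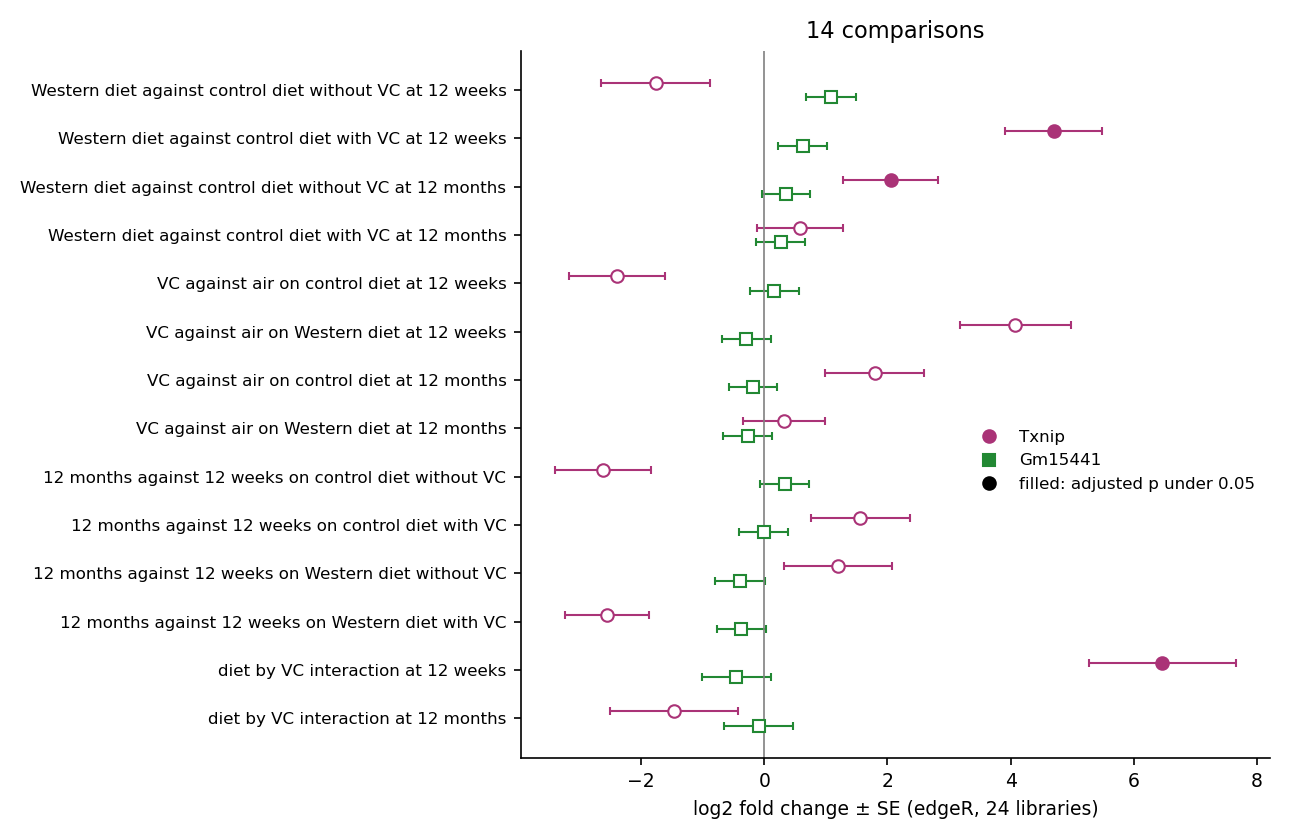
Log2 fold change ± SE of Txnip and Gm15441 in 14 comparisons from 1 edgeR fit to 24 libraries. Filled symbols passed an adjusted p of 0.05, which Txnip did at 4.70, 2.05 and 6.47 and Gm15441 did nowhere.

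Over all conditions at once, Gm15441 was higher on Western diet by 0.68 on the log2 scale, in 4 of 4 combinations of time and exposure. The exact two-sided permutation test within those combinations gave p = 0.00525, adjusted to 0.0473 over 9 such tests (3 measures by 3 factors). The adjusted p ran from 0.0108 to 0.161 when each library was left out in turn and stayed under the threshold in 4 of 23 cases, without w12_WD+VC 3, m12_CD 3, m12_CD+VC 3 or m12_WD 2. Txnip was higher on Western diet by 1.53 in 3 of 4 combinations (permutation p = 0.0373, adjusted p = 0.168). The other 7 tests, on time, VC and the share of the pair, had adjusted permutation p-values from 0.298 to 0.491.

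The pair's levels were positively related over the 23 libraries, without passing the adjustment. Pearson's r was 0.43 (permutation p = 0.0392, adjusted p = 0.118) and Spearman's rho 0.44 (permutation p = 0.0365, adjusted p = 0.118), adjusted over 12 p-values from 6 relations. Without w12_WD+VC 1 and w12_WD+VC 2, the libraries farthest from the Txnip median, r was 0.29. Within the times r was 0.40 over 11 libraries at 12 weeks (permutation p = 0.216) and 0.48 over 12 at 12 months (permutation p = 0.115). Without the 2 libraries farthest from the Txnip median, r was 0.18 at 12 weeks (rho 0.37), lacking w12_WD+VC 1 and 2, and 0.84 at 12 months (rho 0.77), lacking m12_CD 3 and m12_WD+VC 1. Total counts had an r of 0.13 with Txnip (permutation p = 0.564) and 0.23 with Gm15441 (permutation p = 0.286).

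Within groups, libraries with more Txnip tended to have more Gm15441, but not in every group and without passing the adjustment in the adopted test. After group means were removed, r was 0.73 and rho 0.62, with permutation p = 0.00645 and 0.0198 when libraries were permuted within groups (adjusted p = 0.0774 and 0.118). The permutation over all libraries gave p = 8.00e-05 and 0.00209 (adjusted p = 0.000960 and 0.0125). That version was run first and was replaced after its result was seen, because deviations can be exchanged only within a group. Libraries stood in the same order by both entries in w12_CD, m12_CD+VC and m12_WD. The order was reversed in w12_WD and in m12_CD, and mixed in the other groups. In m12_CD the log2 deviations were 0.66, 0.11 and -0.77 for Txnip and -0.19, -0.11 and 0.30 for Gm15441. Without the first 2 w12_CD libraries, the farthest from the median, r was 0.60. By this measure Gm15441 was 17th of 4197 genes in likeness to Txnip, against a median r of -0.0233, and both entries share exons and library scaling.

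**Figure D5:**
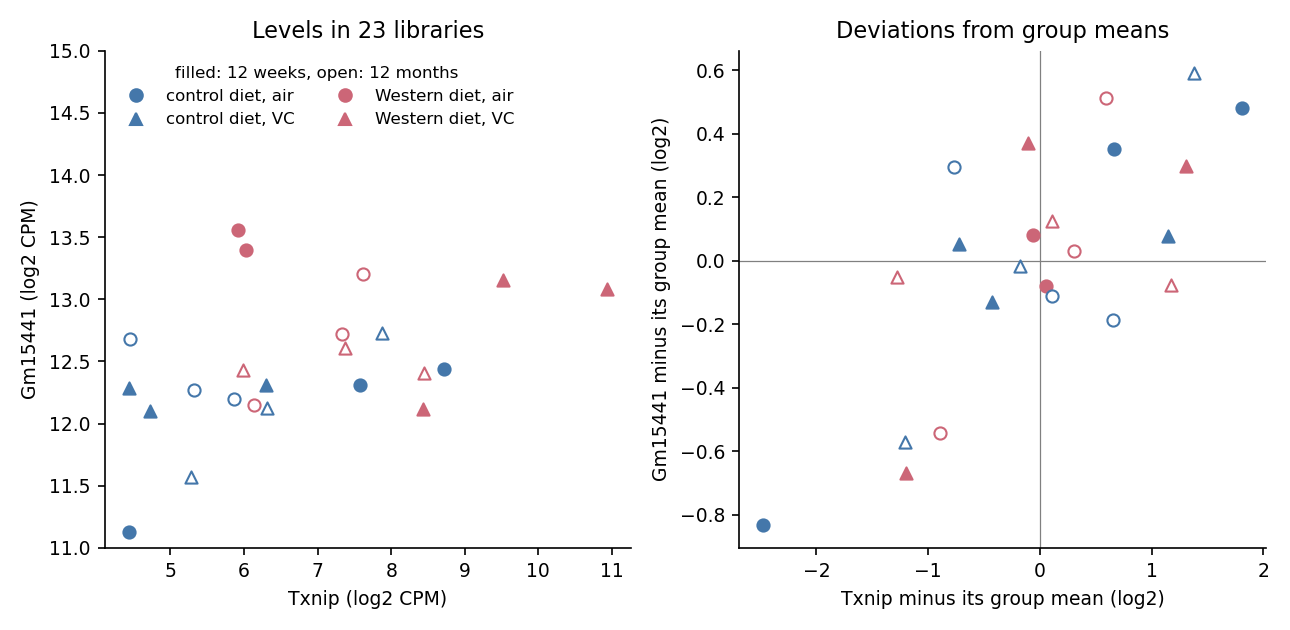
Gm15441 against Txnip in log2 CPM (left) and as deviations from group means (right), 1 point per library, 23 libraries, filled at 12 weeks and open at 12 months. Pearson's r is 0.43 on the left and 0.73 on the right.

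By rank correlation of levels over the same 23 libraries, the 5 genes most like Txnip were Nln (0.77), which encodes the peptidase neurolysin, Tomm40l (0.73), a mitochondrial import channel protein, Arglu1 (0.70), a splicing regulator, Cyp4a10 (0.68) and A330023F24Rik (0.65). Counts under the name Tomm40l were high, with group means from 15428 CPM in m12_CD+VC to 47895 CPM in w12_WD+VC. Which strand or gene those reads came from was not tested. In likeness to Txnip, Gm15441 stood 122nd of 4197 with 0.44. The 5 most like Gm15441 were 4930562F07Rik (0.72), Cisd3 (0.70), a mitochondrial iron-sulfur protein, Gab1 (0.68), a signalling adaptor, Surf1 (0.68), an assembly factor of cytochrome oxidase, and 1700020L24Rik (0.67). These are descriptions over libraries that share their groups and scaling. Among 119 opposite-strand pairs with both entries tested, the median rank correlation was 0.10, and 18 pairs were above the 0.44 of Txnip and Gm15441.

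Upstream of Txnip, Mlxipl passed the test in 1 of 14 comparisons. It was higher in m12_WD than in m12_CD, by 1.48 (SE 0.457, adjusted p = 0.0174), at 90.6 ± 36.8 against 31.9 ± 5.86 CPM (SD, n = 3). Ppara, which encodes the receptor named above for Gm15441, was higher there too, by 3.09 (SE 0.728, adjusted p = 0.00244), and higher with earlier VC on control diet at 12 months, by 2.71 (SE 0.778, adjusted p = 0.0403). Its interaction at 12 months was -3.51 (SE 0.969, adjusted p = 0.0221). Of all genes, 24.5% were called in this diet comparison, 5.22% in this VC comparison and 9.81% in the interaction. In m12_WD+VC the 2, 19 and 11 counts of Ppara equalled those of Prdx2 in each library, and how that came about was not tested. Of 14 regulators of Txnip on the list, only these 2 had enough counts to be tested.

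Among 27 ChREBP and glucose-responsive genes, 21 were tested. None passed in the diet comparison with VC at 12 weeks, where Txnip was called, and their median log2 fold change was -0.85 against 0.0190 over all genes. At 12 months without VC, 2 rose (Mlxipl and Fbp1, a gluconeogenic enzyme, by 1.16 with adjusted p = 0.0441) and 1 fell (Me1, which makes NADPH for fat synthesis, by -1.76 with adjusted p = 0.0309). With earlier VC, 3 fell on Western diet: Acly (-3.16), Me1 (-2.35) and Fasn (-2.57), which act in fat synthesis, with adjusted p from 0.0324 to 0.0438. Of all genes, 0.524% were called in the first of these comparisons, 24.5% in the second and 1.81% in the third. Arrdc4, the alpha-arrestin closest to Txnip, did not reach the filter, with 0 to 4 counts per group. Of the 5 alpha-arrestins other than Txnip, 1 was tested and it passed none.

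Of 20 thioredoxin and peroxiredoxin genes, 10 were tested and none passed at 12 weeks. The peroxidases Prdx5 (2.103), Prdx1 (1.99) and Prdx2 (2.49) were higher in m12_WD than in m12_CD, with adjusted p from 0.00610 to 0.0166, where 24.5% of all genes were called. Txn1, the thioredoxin that the Txnip protein binds, did not reach the filter. Txnrd1, which reduces thioredoxin, ran from 27.9 ± 15.5 (SD, n = 2) in w12_WD to 63.5 ± 51.9 CPM (SD, n = 3) in m12_WD and passed no comparison. Of 8 inflammasome genes, 1 was tested and it passed none.

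Of 28 PPAR-alpha targets and fasting genes, 22 were tested. For diet with VC at 12 weeks 1 rose, the Cyp4a14 given above, and the median was 0.40 against 0.0190 over all genes. At 12 months without VC, 13 rose and 2 fell on Western diet, where 24.5% of all genes were called, with a median of 1.41 against 0.11. Ehhadh, a peroxisomal fatty acid oxidation enzyme, rose by 3.22 (adjusted p = 9.92e-05) and Cyp4a10 by 3.43 (adjusted p = 0.000458). With earlier VC on control diet 8 rose and 0 fell, where 5.22% of all genes were called, among them Ehhadh (2.56, adjusted p = 0.0147). Hepatocyte markers summed to 20338 to 35233 CPM in m12_CD+VC and 5343 to 12769 in m12_CD, stellate and fibroblast markers to 97.5 to 118 and 8.76 to 29.3, and macrophage and Kupffer cell markers to 214 to 288 and 83.2 to 153. Their part in the Ppara, PPAR-alpha target and Txnip differences with VC was not tested. The interaction at 12 months was called and negative for 11, where 9.81% of all genes were called, as in Ehhadh (-3.97, adjusted p = 0.00308). Angptl4, another PPAR-alpha target, had 14.8 to 49.6 CPM as group means. The entry named Gm15441 was called in none of these comparisons. Which strand its counts came from was not tested, and neither was a relation of either entry to PPAR-alpha.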

How the data were processed

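Liver RNA was depleted of ribosomal RNA, made into libraries with a TruSeq RNA v2 kit and read by a HiSeq2500 sequencer, as the labels' protocols state. The submitters' processing notes name HTSeq 0.11.2, HISAT2 2.1.0, Trimmomatic 0.38 and the build mm10. The strand setting and annotation behind the counts are not given in the sources used. The deposited series table holds raw counts per gene, and all values were computed from it. The deposited per-sample files hold log2 values that matched log2 of the count over a size factor, plus 1, within 1e-06 and were not used further. Replicates differed by more than sampling noise, so every library was counted once.

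Counts were filtered by edgeR's expression filter, scaled by TMM and fitted in 1 quasi-likelihood model of 8 groups (edgeR 4.0.16, R 4.3.3), with Benjamini-Hochberg adjustment over 4198 genes and a threshold of 0.05. The sum of the pair replaced both entries in a second fit. Permutation tests (numpy 2.4.6, scipy 1.17.1) used log2 CPM with a prior count of 2 in libraries of at least 10000 counts, with 80000 relabellings for factors and 100000 for correlations. The gene test, the permutation test of factors and the correlation test permuted over all libraries were tested on simulated data. The within-group permutation of correlations was not. Alternatives were RLE scaling, no filter, DESeq2 1.42.0, the compared groups alone, the replicate number as a block, another prior count, and leaving out libraries. For correlations of deviations, 2 permutation schemes were run, and the within-group scheme was adopted after the first result was seen.

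The members, gene lists and tests were chosen with earlier results of these data known. Genes named beside the pair were list members past the threshold, up to 6 per list and comparison by adjusted p and here a selection of them, the 5 most correlated with each member, and Mlxipl, Arrdc4, Txn1, Txnrd1, Ppara, Pdk4 and Angptl4.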

Additional observations from a re-analysis of the deposited data

Results flagged for a closer look

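The effect of diet on Txnip at 12 weeks differed between VC-exposed and unexposed mice, with a log2 interaction of 6.47 by edgeR's test of that difference. The call was lost with RLE scaling (adjusted p = 0.0570), with DESeq2 (adjusted p = 0.391) and without any 1 of 6 libraries, w12_CD 2, w12_CD+VC 1 or 2, w12_WD 1 or 2, or w12_WD+VC 1 (adjusted p up to 0.369).

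The share of the pair's counts under Txnip moved in opposite directions, without overlap between the groups' library shares, in 3 pairs of contrasts, and these differences were not tested. Western diet against control diet without VC at 12 weeks gave a ratio of mean shares of 0.134, with VC at 12 weeks 14.9, and without VC at 12 months 2.76. From 12 weeks to 12 months the ratio was 3.76 on Western diet without VC and 0.287 on Western diet with VC. The 2.76 compares m12_WD with m12_CD, and the other 4 ratios rest on w12_WD with n = 2 or on w12_WD+VC. The contrasts share groups.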

How the results depend on the processing

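The libraries hold 2 to 875 counts of Txnip, so its level in low groups rests on few reads, and w12_WD rests on 2 usable libraries. Effects of Gm15441 and of the sum that changed sign were uncalled under each setting run. They were not small in every fit: VC on Western diet at 12 weeks reached -0.67 for Gm15441 when a library was left out. Apart from leaving out a library, 247 of 271 alternatives kept direction and side of the threshold, 5 lost a call, 7 gained one and 12 changed sign. Except where named, the cause was not tested. Values are log2 fold changes.

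With RLE scaling, VC on control diet at 12 months changed sign to 0.24 for Gm15441 and 0.26 for the sum, time on control diet with VC to 0.23 for Gm15441, and the Txnip interaction at 12 weeks (6.43) was lost. Without an expression filter, 5 uncalled Txnip effects passed: VC at 12 weeks on control diet (-2.39) and on Western diet (4.03), VC on control diet at 12 months (1.65), and time on control diet without VC (-2.65) and on Western diet with VC (-2.64). There the sum changed sign for time on control diet with VC (-0.14), and the interaction at 12 months changed sign for Gm15441 (0.10) and the sum (0.0930). With DESeq2, Txnip lost diet without VC at 12 months (2.41) and the interaction at 12 weeks (6.06). VC on control diet at 12 months changed sign for Gm15441 (0.24) and the sum (0.26), as did time on control diet with VC for Gm15441 (0.23). Without the 607-count library, Txnip lost diet without VC at 12 months (1.99), and time on control diet with VC changed sign for the sum (-0.0380). With the compared groups alone, VC on Western diet at 12 weeks (4.08) and time on Western diet with VC (-2.60) passed for Txnip, and time on control diet with VC changed sign for Gm15441 (0.00914).

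Replicate numbers did not pair the libraries: deviations of same-numbered libraries had a mean correlation of 0.0035 with 16 of 77 pairs over 0.1, and 9 of 23 libraries correlated best with their own number. With the replicate number as a block, Txnip lost diet without VC at 12 months (2.03), and time on control diet with VC changed sign for the sum (-0.00517).

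Leaving out each library in turn gave these ranges for Txnip: diet at 12 weeks with VC 3.78 to 5.72 and without VC -2.31 to -0.78, VC on control diet at 12 weeks -3.41 to -1.43 and at 12 months 0.47 to 2.16, diet at 12 months without VC 1.65 to 2.34 and with VC -0.0286 to 1.84, VC on Western diet at 12 weeks 3.13 to 4.48 and at 12 months -0.31 to 0.78, time on control diet without VC -3.15 to -1.66 and on Western diet with VC -3.19 to -1.71, and the interaction at 12 weeks 5.47 to 7.50. For Gm15441 and the sum, VC on control diet at 12 weeks ran from -0.16 to 0.36 and -0.22 to 0.33, VC on Western diet at 12 weeks from -0.67 to 0.0236 and -0.49 to 0.17, VC on Western diet at 12 months from -0.51 to 0.0162 and -0.49 to 0.0342, time on control diet with VC from -0.43 to 0.13 and -0.42 to 0.16, and the interaction at 12 months from -0.32 to 0.33 and -0.33 to 0.34. For the sum, time on control diet without VC ran from -0.0429 to 0.51 and the interaction at 12 weeks from -0.59 to 0.0948. The diet difference of Gm15441 over all conditions ran from 0.58 to 0.76, and the correlation of the pair from 0.34 to 0.53, where its unadjusted permutation p passed 0.05 in 17 of 23 cases.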
